A study of Mus musculus with 48 samples.

Results

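Patl2, Snx22, Tlcd1 and Wdr38 are 4 mouse genes that lie across from an mRNA of a gene used by nearly every cell. Patl2 is annotated across from B2m, Snx22 across from Ppib, Tlcd1 across from Rpl23a and Wdr38 across from Rpl35. The members are the entries with these 4 names, out of 26899 genes in the count table. They were chosen by their high counts in these same libraries and by their position, so their levels and their RIP over input are a description and carry no test.

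The libraries came from 4T1, a mouse mammary tumour cell line, transduced with lentivirus and selected with blasticidin. The vector group carried the control vector 8166-M24-658, a stretch of non-coding DNA in a lentiviral backbone that, per the study's methods, is not the backbone of the CNOT7 constructs. In the other groups a murine Pol2 promoter drove a human CNOT7 cDNA with a FLAG tag, as CNOT7, D40A (without deadenylase activity), M141R (without CNOT1 binding) or E247A/Y260A (without TOB1 binding). Of each construct, input libraries (ribosome-depleted RNA of the lysate) and RIP libraries (RNA precipitated with the M2 anti-FLAG antibody) were sequenced in replicates numbered 6 to 10, D40A without replicate 7, which gave 10 groups and 48 libraries. The labels do not say whether replicates were separate cultures or transductions, so the p-values measure only the spread between these samples, which may be technical.

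B2m encodes the light chain of MHC class I, the complex that presents peptides at the cell surface. Ppib encodes cyclophilin B, a prolyl isomerase of the endoplasmic reticulum, and Rpl23a and Rpl35 encode proteins of the large ribosomal subunit. All of these are transcribed in most cell types. The 4 members are of other kinds: Patl2 is a Pat1-family RNA-binding protein known from oocytes, Snx22 is a sorting nexin with a phosphoinositide-binding PX domain, Tlcd1 is a membrane protein with a TLC domain, and Wdr38 is a WD-repeat protein. CNOT7 is a deadenylase of the CCR4-NOT complex, which shortens poly(A) tails.

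A directional kit keeps the strand of each RNA, but the strand used in counting is not given in the sources used here. Reads from a gene and from its partner on the other strand therefore cannot be told apart in these counts. The counts of each member are reported below as counts of the model, without saying which strand's RNA they came from.

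In GENCODE M21 on GRCm38, Patl2 lies at chr2:122120108-122186189 on the minus strand and B2m at chr2:122147686-122153083 on the plus strand. All 860 bases of the B2m mRNA (transcript B2m-201) fall within the Patl2 span, and 0 of them fall in a Patl2 exon. Snx22 lies at chr9:66065176-66069719 on the minus strand and Ppib at chr9:66060222-66066623 on the plus strand. The 3' ends overlap tail to tail, with 514 of the 892 bases of the Ppib mRNA (57.6%) in Snx22 exons. Tlcd1 lies at chr11:78176711-78181909 on the plus strand and Rpl23a at chr11:78180932-78183584 on the minus strand, with 310 of 560 bases of the Rpl23a mRNA (55.4%) in Tlcd1 exons. Wdr38 lies at chr2:38997476-39006168 on the plus strand and Rpl35 at chr2:39001580-39005624 on the minus strand. All 946 bases of the Rpl35 transcript (Rpl35-201) lie in the Wdr38 span, of which 646 (68.3%) lie in Wdr38 exons. The start codon of this transcript lies within its bases 513 to 542. The bases before them are 5' untranslated and lie in a Wdr38 exon. Other annotated genes of the opposite strand overlap 3 of the spans, Trim69 in Patl2, Snord42a and Snord4a in Tlcd1 and Gm13496 in Wdr38, and their reads cannot be told apart from the members' either. Patl2 is the only member of the 4 whose partner shares its span and none of its exons, as the map of the 4 pairs shows. The counts themselves were made on the older build mm9, and no position was converted.

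**Figure D1:**
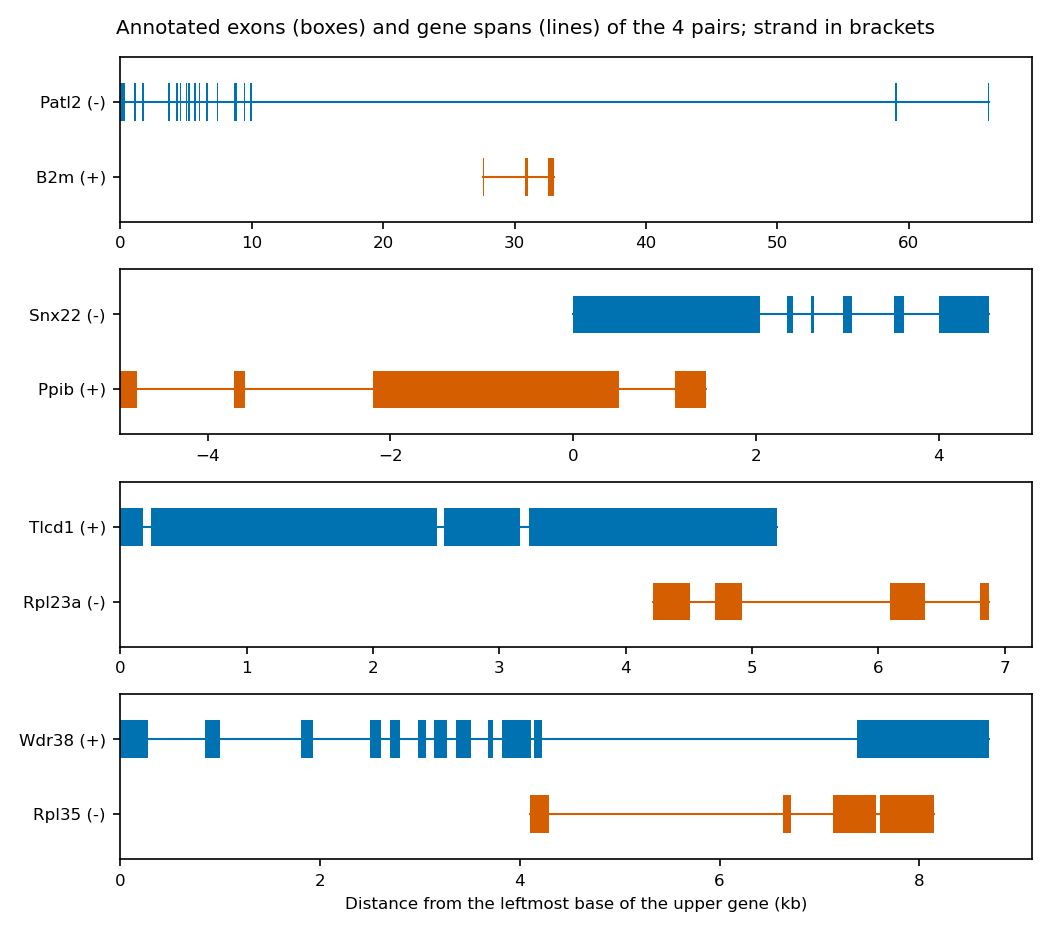
Exons (boxes) and gene spans (lines) of each member (upper row) and of its partner on the other strand (lower row), with the distance from the leftmost base of the member in kb on the x axis. The B2m exons lie in an intron of Patl2, whereas exons of Ppib, Rpl23a and Rpl35 overlap exons of Snx22, Tlcd1 and Wdr38.

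Where exons overlap, the same bases belong to the partner's mRNA on one strand and to the member's on the other. The stretches shown were chosen because they hold the partner's stop or start codon, which shows that the overlap includes coding bases of the partner. The whole overlap is longer, as the counts of shared bases above give it. Each is 30 bases, 5' to 3', read from the GENCODE M21 transcripts, with the partner's codon in capitals and its reverse complement in capitals in the member.
Ppib: gagaaacccttcgccattgccaaggagTAG
Snx22: CTActccttggcaatggcgaagggtttctc
Rpl23a: agattgggatcatcTAAactgagtccagat
Tlcd1: atctggactcagtTTAgatgatcccaatct
Rpl35: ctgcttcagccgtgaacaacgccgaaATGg
Wdr38: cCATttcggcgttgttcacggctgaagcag
The Ppib stretch is bases 657 to 686 of Ppib-201 and bases 1302 to 1331 of Snx22-201. The Rpl23a stretch is bases 496 to 525 of Rpl23a-201 and bases 1761 to 1790 of Tlcd1-201. For this pair and the last, the stretch in the member lies 3' of the member's own stop codon, as it does in Snx22. The Rpl35 stretch holds the start codon and is bases 513 to 542 of Rpl35-201 and bases 1614 to 1643 of Wdr38-201, a transcript annotated as a target of nonsense-mediated decay. Patl2-201 and B2m-201 share 0 stretches of 30 bases, so none is printed for them.

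The input libraries held 337861 to 826768 counts and the RIP libraries 1305627 to 10719137. In the RIP libraries, 13 models took 95.4% to 98.2% of the counts, so the counts behind the members there are small against the totals. TMM scaling factors, which correct each library for such skew, were 3.86 to 5.54 in the inputs and 0.147 to 0.35 in the RIP libraries. Counts of the mouse Cnot7 entry ranged from 31 to 178 in 23 of the inputs, with 6 in CNOT7 input replicate 10, and from 0 to 18 in the RIP libraries, and whether reads of the human cDNA fall in it is not given in the sources used here. Of 9 epithelial markers of 4T1 cells, the highest means per input were Krt7 at 17.2, Cdh1 at 13.7 and Epcam at 13.6, close to Actb at 12.4. The keratins Krt8 and Krt18 had means of 2 and 2.3, and Krt14 had 0 counts in every input. Of 7 immune markers the highest mean was that of Csf1r, a macrophage growth factor receptor, at 34.8 (12 to 53 counts), above every epithelial marker, and the next was Cd68 at 3.8. Of 8 endothelial and fibroblast markers the highest was 5.3 (Pecam1). The part of such markers in the members' counts was not tested.

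In the inputs, the 4 members were among the most counted models of the table. Patl2 ranked 6th, Snx22 12th, Tlcd1 28th and Wdr38 35th of 26899 by mean count. The models of the partners were far lower, at ranks 2491 for B2m, 1951 for Ppib, 2255 for Rpl23a and 4729 for Rpl35.

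Patl2, the Pat1-family model across from B2m, had 6204, 7612, 9329, 6366 and 8448 counts in vector inputs 6 to 10. In CNOT7 inputs 6 to 10 it had 5741, 10952, 8436, 5166 and 1 counts. The single count of CNOT7 input replicate 10 stands against at least 5166 in every other input. The counting settings of single libraries are not given in the sources used here, so whether this 1 count is a level of the RNA cannot be told from the table, and the same holds for the other low counts of that library. In D40A inputs 6, 8, 9 and 10 Patl2 had 7513, 10134, 6880 and 6006 counts. In E247A/Y260A inputs 6 to 10 it had 7837, 9132, 10105, 7537 and 8711, and in M141R inputs 6010, 7344, 7821, 8192 and 9196. Apart from the low CNOT7 library, the 5 groups overlapped, each spanning counts between 5166 and 10952.

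B2m itself had 10, 15, 16, 11 and 16 counts in the vector inputs and 1 to 23 over all 24 inputs. Summed over the 23 inputs other than CNOT7 input replicate 10, Patl2 had 180672 counts and B2m 288, a ratio of 627. In CNOT7 input replicate 10, B2m had 9 counts where Patl2 had 1, so this is the only input in which B2m was not the lower of the pair.

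Snx22, the sorting nexin across from Ppib, had 5537, 3565, 5508, 4144 and 1855 counts in vector inputs 6 to 10 and 5393, 4578, 4858, 2593 and 1942 in CNOT7 inputs. In the D40A inputs it had 5941, 4091, 2885 and 1431 counts in replicates 6, 8, 9 and 10. In E247A/Y260A inputs 6 to 10 it had 5822, 4195, 3003, 2694 and 2272, and in M141R inputs 5369, 5175, 2947, 3742 and 2597. Replicate 10 had the lowest count of every construct, while the constructs overlapped. By CPM it was the lowest of 4 constructs, since CNOT7 input replicate 7 was at 5537 and replicate 10 at 5634. Ppib had 6 to 44 counts in the inputs, with the summed Snx22 counts 211 times the summed Ppib counts over the same 23 libraries.

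Tlcd1, the TLC-domain model across from Rpl23a, had 2481, 1897, 1480, 1312 and 1355 counts in vector inputs 6 to 10. In CNOT7 inputs it had 1688, 2352, 1234, 1137 and 1393 counts, so replicate 10, with its single Patl2 count, was not low for Tlcd1. In D40A inputs it had 2134, 1624, 1199 and 854, in E247A/Y260A inputs 2099, 1706, 1512, 1526 and 1491, and in M141R inputs 2497, 2122, 1284, 1486 and 2113. All groups overlapped. Rpl23a had 4 to 32 counts in the inputs, and the ratio of the summed counts was 113.

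Wdr38, the WD-repeat model across from Rpl35, had 1450, 1959, 1123, 1307 and 1247 counts in vector inputs 6 to 10. In CNOT7 inputs it had 1042, 2357, 932, 974 and 143 counts, the last again in replicate 10. In D40A inputs it had 1477, 1227, 1130 and 919, in E247A/Y260A inputs 1594, 1921, 1008, 1336 and 1593, and in M141R inputs 1841, 2162, 951, 1432 and 2455. Leaving out CNOT7 input replicate 10, every input had at least 919. Rpl35 had 0 to 22 counts, 0 of them in vector input replicate 9 and D40A input replicate 6, and the ratio of summed counts was 307.

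**Figure D2:**
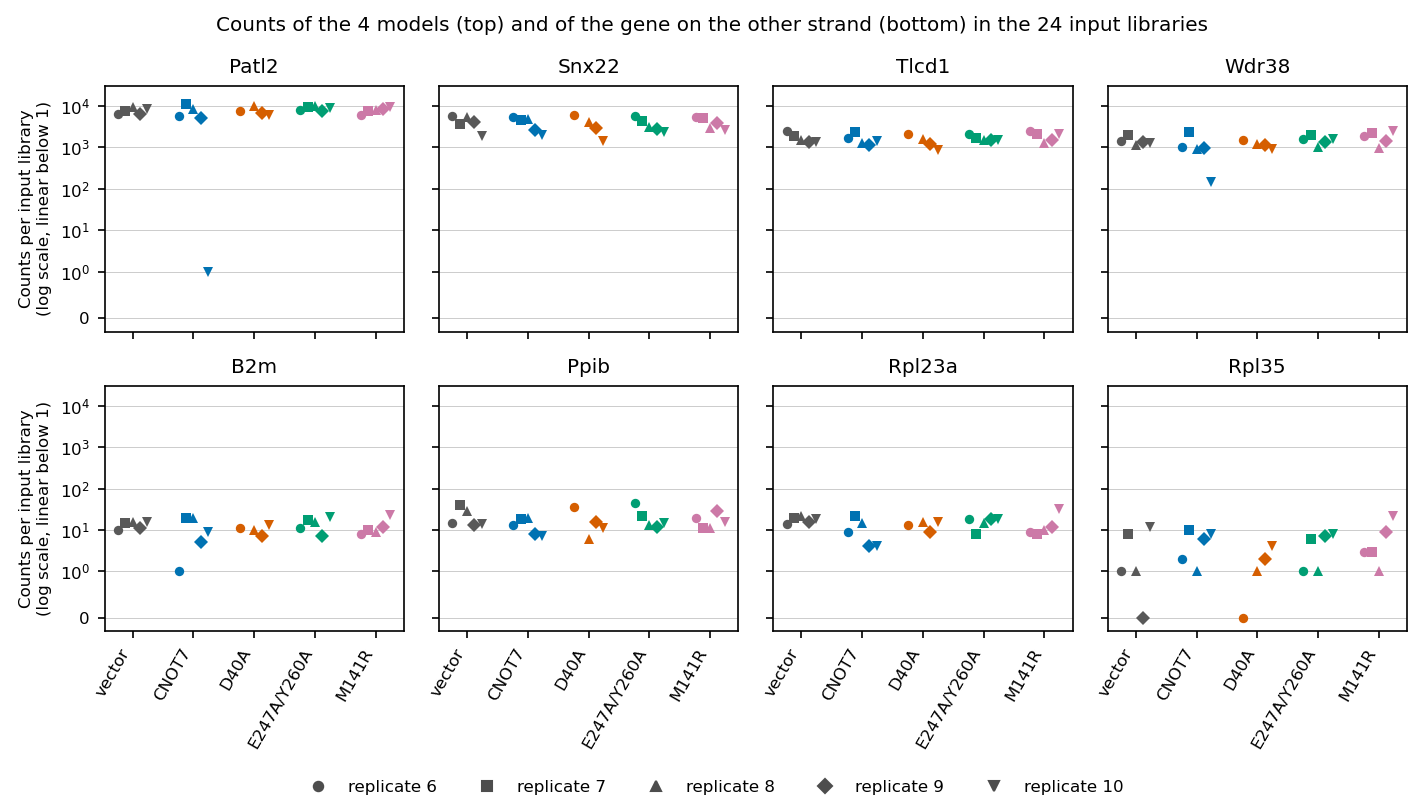
Counts per library (log scale, linear below 1) of the 4 members (top) and of the partner on the other strand (bottom) in the 24 inputs, by construct, with the replicate number as the symbol. Members lie at 854 to 10952 counts and partners at 0 to 44, except that Patl2 had 1 count and Wdr38 143 counts in CNOT7 input replicate 10.

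As a share of all counts, Patl2 took 14000 ± 2960 CPM (counts scaled to a common library total) in vector inputs (SD, n = 5), 16300 ± 4400 in D40A (n = 4), 16600 ± 4220 in E247A/Y260A (n = 5) and 13600 ± 3260 in M141R (n = 5). In CNOT7 inputs it took 11700 ± 6840 (n = 5), and 14600 ± 2350 (n = 4) without replicate 10. Snx22 took 7860 ± 3500 CPM in vector inputs and 8100 ± 2680 in CNOT7 inputs. Tlcd1 took 3130 ± 890 and 3290 ± 589, and Wdr38 2590 ± 501 and 2060 ± 1010, the last 2480 ± 466 (n = 4) without replicate 10. With replicate 10 included, CNOT7 inputs had the lowest mean and the widest SD of the 5 constructs for Patl2 and for Wdr38.

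Per length, the order of the members depends on which length is used. Divided by annotated exon bases, the mean input level was 5890 CPM per kb for Patl2, 2550 for Snx22, 897 for Wdr38 and 632 for Tlcd1. Divided by the whole gene span, it was 1620 CPM per kb for Snx22, 609 for Tlcd1, 296 for Wdr38 and 217 for Patl2. Patl2 thus moved from the highest to the lowest of the 4. By exon length the partners were at 31.7 CPM per kb for Rpl23a, 26.9 for B2m, 10.2 for Ppib and 7.15 for Rpl35, below all 4 members.

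CNOT7 input replicate 10 differed from the other 23 inputs most in models whose span, but not exons, holds coding exons of the other strand. On the CPM scale it held 0.0205% of the median of the other inputs for Patl2, 15.6% for Wdr38, 75.5% for Snx22 and 131% for Tlcd1. Its total of 344689 counts lies within the range of the other inputs, and the 13 most counted RIP models took 1.59% of it against 8.41% to 21.1% in the other inputs.

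The same measure was taken for the 639 models with a mean of at least 100 counts in the other 23 inputs. Of these, 563 (88.1%) have exons of a coding gene of the other strand in their span, against 20.1% of all 26555 models matched to GENCODE M21. The 90 models whose span holds such exons but whose own exons do not overlap them, as with Patl2, lay under 10% of the other inputs' median in 76 cases (84.4%), with a median of 0.825%. Of the 473 models with overlapping exons, as with the other 3 members, 100 (21.1%) lay under 10%, with a median of 41.7%. Of the 76 models with no such exon, 20 (26.3%) lay under 10%, with a median of 90.2%. In any other single input, at most 5 models of a class lay under 10%. The cause of this difference was not tested.

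**Figure D3:**
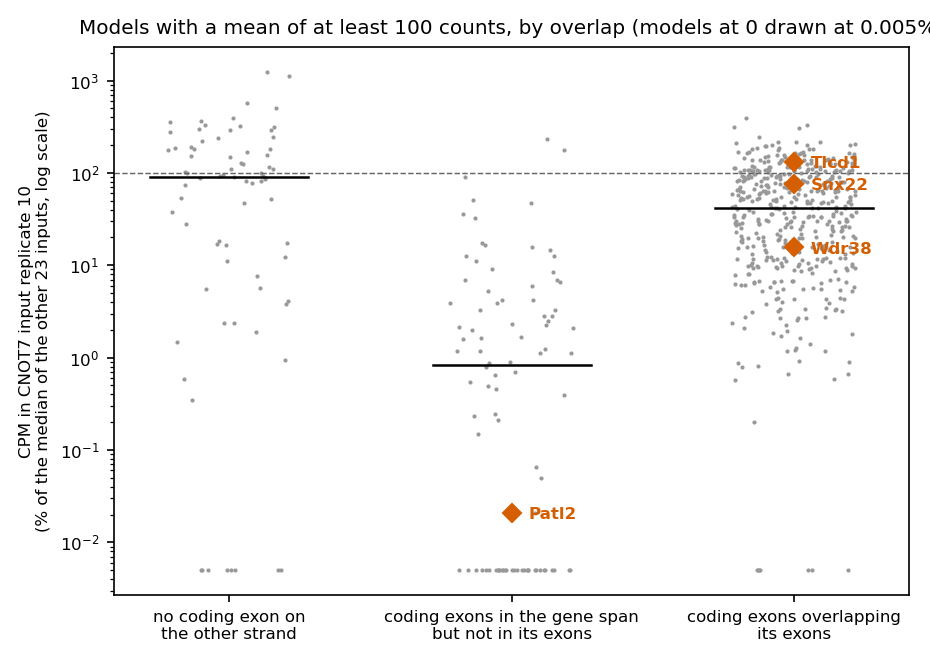
CPM in CNOT7 input replicate 10 as a percent of the median of the other 23 inputs (log scale), for 639 models in 3 classes of overlap with coding exons of the other strand. Grey points are models (those at 0 are drawn at 0.005%), black lines class medians and diamonds the 4 members. Patl2 lies at 0.0205% among models with coding exons only in their span, and Wdr38, Snx22 and Tlcd1 at 15.6%, 75.5% and 131% among those with overlapping exons.

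In the inputs, levels moved with the replicate number more than with the construct. Over the 23 inputs other than CNOT7 input replicate 10, the replicate number accounted for 84.3% of the sum of squares of Snx22 on the TMM-scaled log2 CPM scale, against 5.51% for the construct. For Tlcd1 the values were 78.3% and 1.09%, for Patl2 74.8% and 20.8%, and for Wdr38 63.7% and 7.39%. With CNOT7 input replicate 10 included, the shares of Patl2 were 21.1% and 16.7% and those of Wdr38 37.3% and 18.9%. In the RIP libraries the replicate number and the construct were nearly level for Patl2, at 30.1% and 27.3%, and stood at 67.7% and 9.22% for Snx22, 77.5% and 3.05% for Tlcd1 and 65.9% and 10.6% for Wdr38. These shares are a description and were not tested.

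Snx22 lay at 2100 to 2800 TMM-scaled CPM in the 5 inputs of replicate 6 and at 600 to 1290 in those of replicate 10, with no overlap. Tlcd1 lay at 811 to 1120 in replicate 6 and at 438 to 927 in replicate 10, where CNOT7 gave the highest value. Patl2 followed another order, with 3280 to 4780 in replicate 8, 3450 to 4420 in replicate 9 and 2230 to 3020 in replicate 7. Wdr38 was lowest by median in replicate 8 (460, range 400 to 580) and highest in replicate 9 (727, range 710 to 782). The labels do not say what the replicate number marks.

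**Figure D4:**
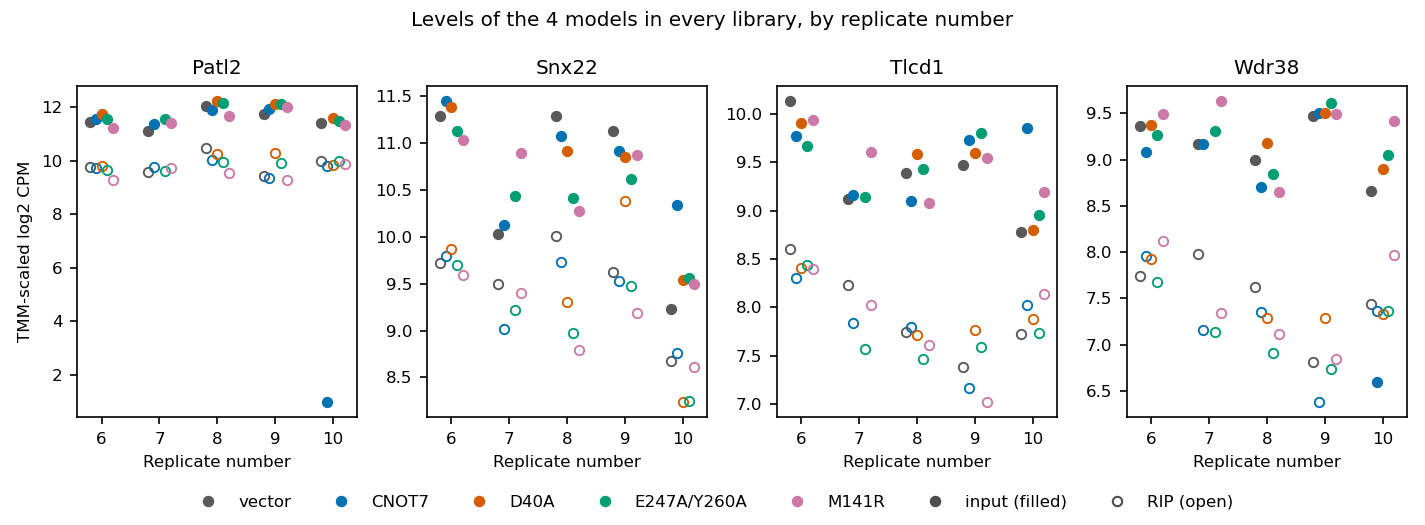
TMM-scaled log2 CPM of each member in all 48 libraries by replicate number, with the construct as colour, inputs filled and RIP libraries open. Snx22 inputs of replicate 6 (2100 to 2800 CPM) lie above all those of replicate 10 (600 to 1290 CPM), and CNOT7 input replicate 10 lies apart for Patl2 and Wdr38.

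The first question of the design is whether a CNOT7 form changes the RNA in the lysate. Among the 5 input groups, 0 of the 4 members differed by construct (edgeR quasi-likelihood F test, Benjamini-Hochberg adjustment over 6931 genes, adjusted p = 1 for each). The background was 2 of 6931 genes called, or 0.0289%. The lowest unadjusted p was 0.739, for Wdr38, so 0 members were under 0.05 before adjustment, and with DESeq2 the lowest was 0.340. Without CNOT7 input replicate 10 the p of Wdr38 was 0.979 and the lowest, that of Patl2, 0.806. For each member all 10 pairs of input groups overlapped in their ranges.

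Against vector, 0 of the 16 tests of a member and a form were called in the inputs, with a background of 0% of 6931 genes in each of the 4 contrasts. The lowest unadjusted p was 0.452 by edgeR and 0.125 by DESeq2. Patl2 in CNOT7 inputs was at a log2 difference from vector of -0.22 (SE 0.54, 95% interval -1.30 to 0.86) with all libraries. Without CNOT7 input replicate 10 it was 0.11 (SE 0.36, interval -0.60 to 0.82), which changes the sign and narrows the interval. Wdr38 was at -0.28 (SE 0.37) with all libraries and at -0.01 (SE 0.38) without that one.

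The other differences from vector in the inputs were small against their errors. These errors and intervals are from the fit without a replicate block, so they include the spread between replicate numbers. Intervals with the block are not given here. D40A gave 0.35 (SE 0.57) for Patl2, 0.02 (SE 0.45) for Snx22, 0.07 (SE 0.36) for Tlcd1 and 0.10 (SE 0.39) for Wdr38. E247A/Y260A gave 0.22 (SE 0.54), -0.28 (SE 0.42), -0.02 (SE 0.34) and 0.08 (SE 0.37) in the same order, and M141R gave -0.04 (SE 0.54), -0.18 (SE 0.42), 0.05 (SE 0.34) and 0.22 (SE 0.37). For Tlcd1, the member with the narrowest errors, the 95% intervals of the 4 forms reached from -0.71 to 0.80, so a 2-fold change (1 on the log2 scale) in either direction lies outside them. Intervals of Patl2 reached down to -1.30 and up to 1.49, those of Snx22 down to -1.12 and those of Wdr38 down to -1.01 (CNOT7), and so included changes of that size. Once CNOT7 input replicate 10 was left out, the SEs of Patl2 in D40A, E247A/Y260A and M141R narrowed to 0.36, 0.34 and 0.34. The Patl2 intervals of the 4 forms then reached from -0.72 to 1.05, which leaves a 2-fold fall outside and a 2-fold rise just inside for D40A. Those of Snx22 still reached down to -1.15 and up to 1.07 (the latter in CNOT7), so they included a 2-fold change in both directions. Those of Wdr38 reached from -0.77 to 0.90.

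Between same-numbered inputs, a form was above its vector library in 49 of 76 pairs of member and form. Patl2 was above vector in 4 of 4 D40A pairs, by 0.18 to 0.36 on the log2 scale, and in 5 of 5 E247A/Y260A pairs, by 0.08 to 0.44. Wdr38 was above vector in 4 of 4 D40A pairs, by 0.02 to 0.24. These pairs share the vector libraries, and the fit with the replicate number as a block called none of the 16 tests (lowest unadjusted p = 0.320). That fit kept CNOT7 input replicate 10, and without a block the Patl2 errors were wider with that library than without it. No fit both used the block and left that library out, so the blocked fit cannot decide what the Patl2 pairs mean.

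The mutants were also set against CNOT7, which asks what is lost with deadenylase activity, CNOT1 binding or TOB1 binding. In the inputs 0 of 12 tests of a member and a mutant were called, with 0.0289% of genes called for M141R and 0% for D40A and E247A/Y260A. The lowest unadjusted p was 0.183, for Wdr38 in M141R, where the log2 difference was 0.49 (SE 0.37) with all libraries and 0.21 (SE 0.38) without CNOT7 input replicate 10. DESeq2 also had 0 tests under 0.05 before adjustment, its lowest p being 0.0814. The log2 difference of Patl2 between D40A and CNOT7 inputs was 0.57 (SE 0.57) with all libraries and 0.23 (SE 0.38) without that library.

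In the precipitates the members had 42 to 2883 counts although these libraries were deeper than the inputs. Patl2 had 482, 497, 664, 381 and 532 counts in vector RIP 6 to 10 and 591, 554, 588, 337 and 425 in CNOT7 RIP. In D40A RIP 6, 8, 9 and 10 it had 657, 681, 2728 and 334, where replicate 9 is the deepest library of the series. In E247A/Y260A RIP it had 598, 494, 379, 754 and 445 counts, and in M141R RIP 468, 491, 312, 503 and 423. CNOT7 RIP replicate 10 had 425 Patl2 counts, within the range of the other precipitates, although the input of the same number had 1.

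Snx22 had 472, 475, 484, 442 and 216 counts in vector RIP 6 to 10, 628, 329, 477, 378 and 204 in CNOT7 RIP, and 692, 359, 2883 and 111 in D40A RIP. In E247A/Y260A RIP it had 617, 376, 193, 556 and 133 counts and in M141R RIP 576, 391, 186, 472 and 174. As in the inputs, replicate 10 was the lowest of each construct. Tlcd1 had 68 to 471 counts over the 24 RIP libraries (median 123.5) and Wdr38 42 to 335 (median 91).

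The partners had few counts in the precipitates. B2m had 0 counts in 13 of 24 RIP libraries, Rpl35 in 20, Rpl23a in 7 and Ppib in 3. Rpl35 had at most 1 count. The highest counts of Ppib, Rpl23a and B2m were 27, 16 and 7, each in D40A RIP replicate 9, the deepest library, and Ppib had 3 or fewer counts in 16 of the 24. Summed over the 24 RIP libraries the member exceeded the partner by a ratio of 623 for Patl2 over B2m (14318 and 23 counts), 139 for Snx22 over Ppib and 86.7 for Tlcd1 over Rpl23a. For Wdr38 over Rpl35 the sums were 2663 and 4 counts. In the 23 inputs and the RIP libraries the Patl2 to B2m ratio was 627 and 623, the latter on 23 B2m counts. The other ratios were 211 and 139 for Snx22 to Ppib and 113 and 86.7 for Tlcd1 to Rpl23a. For Wdr38 to Rpl35 they were 307 and, on 4 Rpl35 counts, 666.

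RIP over input asks whether an RNA is carried along with the FLAG-tagged protein beyond its level in the lysate, with the vector group as the background, since its cells hold no FLAG-CNOT7. In vector cells the log2 ratio of TMM-scaled levels was -1.71 (SE 0.56) for Patl2, -1.23 (SE 0.43) for Snx22, -1.45 (SE 0.35) for Tlcd1 and -1.60 (SE 0.38) for Wdr38. The median over all 6931 genes tested was -0.85. In CNOT7 cells the ratios were -1.62 (SE 0.56), -1.44 (SE 0.43), -1.69 (SE 0.35) and -1.56 (SE 0.38) in the same order, beside a median of -0.78. Without CNOT7 input replicate 10 the CNOT7 ratios were -1.56 (SE 0.36), -1.15 (SE 0.46), -1.22 (SE 0.39) and -1.42 (SE 0.38), beside an all-gene median that had itself moved to -0.33, over the 8081 genes that then passed the filter.

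In D40A cells the ratios were -1.88 (SE 0.63) for Patl2, -1.17 (SE 0.48) for Snx22, -1.56 (SE 0.39) for Tlcd1 and -1.78 (SE 0.42) for Wdr38, with an all-gene median of -0.37. In E247A/Y260A cells they were -1.98 (SE 0.56), -1.31 (SE 0.43), -1.63 (SE 0.35) and -2.04 (SE 0.38), with a median of -0.62. In M141R cells they were -1.98 (SE 0.56), -1.45 (SE 0.43), -1.60 (SE 0.35) and -1.82 (SE 0.38), with a median of -0.64. All 20 ratios lay below the all-gene median of their construct, at percentiles from 10.4 (Patl2 in D40A) to 38 (Snx22 in vector) of all genes. In vector cells, which hold no FLAG-CNOT7, all 4 ratios were thus also below the median. With CNOT7 input replicate 10 left out, the medians moved to -0.44 in vector, -0.037 in D40A, -0.29 in E247A/Y260A and -0.29 in M141R cells, and the 20 ratios again lay below them, from -1.72 (Wdr38 in E247A/Y260A) to -0.85 (Snx22 in vector).

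**Figure D5:**
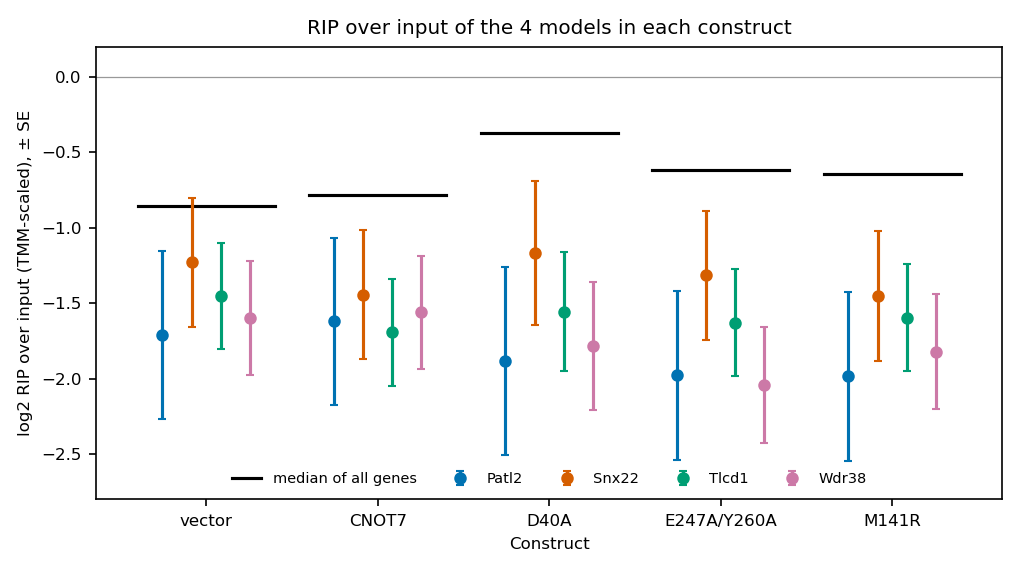
Fitted log2 RIP over input of each member by construct, with SE bars, on TMM-scaled libraries. Black lines are the medians over all 6931 genes tested, from -0.85 (vector) to -0.37 (D40A), and the 20 points of the members lie below them.

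The size of the ratio depends on the scaling, since 13 models fill the precipitates. Averaged over the 5 constructs, Patl2 was at -1.84, Snx22 at -1.32, Tlcd1 at -1.59 and Wdr38 at -1.76 with TMM. With library size alone they were at -6.17, -5.65, -5.94 and -6.12, and with library size counted outside the 13 models at -1.06, -0.55, -0.78 and -0.97. Without CNOT7 input replicate 10 the TMM values were -1.58, -1.02, -1.22 and -1.47, beside an all-gene median of -0.28 in place of -0.65. This shift of the median was not particular to that library, since leaving out any 1 of the 24 inputs let more genes through the filter and moved the median to between -0.50 and -0.27. Set against the all-gene median of the same scaling, the values were closer, at -1.18, -0.67, -0.93 and -1.11 with TMM, at -1.33, -0.81, -1.09 and -1.28 with library size alone, and at -1.30, -0.74, -0.95 and -1.19 with TMM without that library. As a share of the counts outside the 13 models, the ranges of the 23 inputs other than CNOT7 input replicate 10 and of the RIP libraries overlapped for all 4 members. Patl2 took 1.17% to 2.73% in these inputs and 0.468% to 1.18% in the RIP libraries, Snx22 0.323% to 1.43% and 0.264% to 0.860%, Tlcd1 0.196% to 0.577% and 0.0967% to 0.373%, and Wdr38 0.211% to 0.389% and 0.0788% to 0.25%. On the TMM scale only the Snx22 ranges overlapped (600 to 2800 and 301 to 1330 CPM), so the overlap too depends on the scaling.

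RIP over input of the members was then compared between constructs by a test of the difference itself. Across the 5 constructs 0 of 4 members were called for the interaction of construct and library kind, with 0% of 6931 genes called, a lowest unadjusted p of 0.893 (Wdr38) by edgeR and 0.774 by DESeq2. Within the precipitates 0 of 4 members were called among the 5 constructs, again with 0% of genes called and a lowest unadjusted p of 0.749 (Snx22) by edgeR and 0.781 by DESeq2. Against vector RIP, 0 of 16 tests were called (0% of genes in each contrast), the lowest unadjusted p being 0.335 for Wdr38 in E247A/Y260A, at a log2 difference of -0.36 (SE 0.37). Against CNOT7 RIP, 0 of 12 tests were called (0% of genes), the lowest unadjusted p being 0.531 for Wdr38 in M141R, and 0 tests of either kind were under 0.05 before adjustment, also by DESeq2. Without CNOT7 input replicate 10, 0 tests were called in any of these comparisons of inputs, precipitates or ratios, and the lowest unadjusted p in all of them was 0.239 (Wdr38, E247A/Y260A against vector RIP).

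The largest of the 16 fitted differences from vector RIP was that of Snx22 in M141R, at -0.40 (SE 0.42, 95% interval -1.25 to 0.44). Snx22 was below vector in 5 of 5 same-numbered pairs of E247A/Y260A, with log2 differences of -1.04 to -0.02, and in 5 of 5 of M141R, with -1.22 to -0.07. Wdr38 was below vector in 5 of 5 pairs of E247A/Y260A, with -0.84 to -0.06. These pairs share the vector libraries, and the fit with the replicate number as a block called none of the 16 RIP tests (lowest unadjusted p = 0.179). Over all members the form was above vector in 24 of 76 same-numbered RIP pairs. The order of the groups changed from member to member, with D40A RIP highest for Patl2 and Tlcd1 and vector RIP highest for Snx22 and Wdr38, and in each case all 10 pairs of groups overlapped.

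The genes whose level followed a member most closely over the 24 inputs are given as a description, since the points share libraries, depth and replicate numbers. For Snx22 the 5 highest Pearson correlations of TMM-scaled log2 CPM were with Gm26631, at 0.96, Prss23os, at 0.96, Gm15200, at 0.95, Agbl5, at 0.94, and Vps26b, at 0.93. Coding genes across from the first 4 are Cox5a and Fam219b, Prss23, Ostm1 and Ost4. Without CNOT7 input replicate 10 these correlations were 0.93 to 0.96, and after the mean of each replicate number was subtracted 0.69 to 0.87.

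For Patl2 the 5 highest were Dlgap1, Tatdn1, Gm20388, Gm15581 and 4930558K02Rik, each at 0.98, which fell to 0.09 to 0.69 without CNOT7 input replicate 10 and to -0.09 to 0.44 within replicate numbers. Of these, Tatdn1 lies across from Rnf139, Gm15581 across from Cav1 and Cav2, and 4930558K02Rik across from Pigc, whereas Dlgap1 has no coding exon of the other strand in its span. For Wdr38 the 5 highest were Golga2, 4930525G20Rik, Gm20476, Cmss1 and Gm21985, at 0.92 to 0.93 with all inputs, 0.61 to 0.77 without that library and 0.02 to 0.77 within replicate numbers. For Tlcd1 they were Gm26619, Tmem88, Gm16759, Htra2 and Gm20628, at 0.81 to 0.88 with all inputs, 0.82 to 0.89 without that library and 0.32 to 0.60 within replicate numbers. Coding exons of the other strand lie in the span of 18 of the 20 genes, and also in that of 78.3% of all 1812 models with a mean of at least 20 counts, the minimum for this comparison, and of 88.1% of those with at least 100.

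Among the members, Snx22 and Tlcd1 moved together most over the 23 inputs, at 0.81, which became 0.30 once the mean of each replicate number was removed. Tlcd1 and Wdr38 were at 0.66 over the 23 inputs and 0.83 within replicate numbers, and at 0.88 over the 24 RIP libraries. The RIP value was not adjusted for the replicate number, which held 77.5% of the RIP sum of squares for Tlcd1 and 65.9% for Wdr38. Patl2 and Wdr38 were at 0.86 over 24 inputs and -0.01 without CNOT7 input replicate 10. With their own partner, the members were at 0.24 (Patl2 and B2m), 0.47 (Snx22 and Ppib), -0.09 (Tlcd1 and Rpl23a) and 0.20 (Wdr38 and Rpl35) over the 23 inputs, where the partners' counts are low. Within replicate numbers these became 0.13, 0.08, 0.07 and 0.07 in the same order. Over the 24 RIP libraries, where the partners' counts are lower still, they were 0.54, 0.12, -0.51 and -0.22.

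Other genes of the same kinds were low in the inputs. Beside each list's count of called genes stands a background of 0% to 0.0289% of 6931 genes in the construct comparisons, so a count of 0 is what all genes gave. Of the 80 cytosolic ribosomal protein genes, 49 could be tested and 0 were called in a construct comparison, with a median of 4.4 counts per input and the highest means at Rps2 (255.6), Rps28 (47.0) and Rpl5 (38.2). A model of the other strand held exon bases of 18 of them, and in 7 of the 18 it was the higher of the pair. Besides Rpl23a with Tlcd1 and Rpl35 with Wdr38, these were Rpl35a with Gm17106 (1.09 and 1320 counts), Rps25 with Ccdc84 (12.5 and 231), Rpl15 with Nkiras1 (2.74 and 184), Rpl5 with Fam69a (38.6 and 108) and Rpl31 with Tbc1d8 (3 and 108). These means are over the 23 inputs. The remaining 11 had the ribosomal protein gene higher or level, among them Rps28 with Kank3 (48.6 and 30.7).

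Of the 10 genes of MHC class I presentation, 6 could be tested and 0 were called. The highest were Canx at 59.0 counts per input, Calr at 16.8 and Pdia3 at 15.1, chaperones of the endoplasmic reticulum that load or fold class I chains. Of 11 other genes of folding in the endoplasmic reticulum, 8 were tested and 0 called, led by Hspa5 (73.3), Hsp90b1 (49.8) and P4hb (8.5). Of 29 sorting nexins 8 were tested and 0 called, with Snx10 at 36.2, Snx21 at 23.2 and Snx17 at 12.5. The Snx22 model had a mean of 3839, but it was chosen for its high counts, so this contrast was set by that choice. Of 18 genes of P bodies and decay, 3 were tested and 0 called, led by Edc3 (93), Eif4enif1 (8.6) and Ddx6 (4.2), and Patl1, the paralog of Patl2, had a mean of 1.5. Of 29 abundant mRNAs of other families 17 were tested and 0 called, with Npm1 at 46.7, Eef1a1 at 37.2 and Hsp90ab1 at 27.8. All were far below the 4 members, which were chosen for high counts.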

How the data were processed

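Per the labels, RNA of lysates and of anti-FLAG precipitates was sequenced after directional library preparation. The submitters' processing notes name BWA, HTSeq and mm9, while versions, annotation and strand of counting are not given in the sources used here. The authors deposited raw counts per gene, not normalized, and 0 of the table's sample columns went unused. Genes were matched by identifier to GENCODE M21 (26555 of 26899). The deposited counts then went through filterByExpr, TMM scaling and the two-sided quasi-likelihood test of edgeR 4.0.16 (R 4.3.3), in a single fit of 48 libraries and 10 groups that was first tested on simulated data. P-values were adjusted by Benjamini-Hochberg, and an adjusted p under 0.05 was called. DESeq2 1.42.0 and other scalings, filters and left-out libraries were alternatives. The members and lists were chosen with earlier results of these data known.

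Input depth was 337861 to 826768 counts and RIP depth 1305627 to 10719137. Replicates of a group differed by more than sampling noise in all 92 pairs (chi-square per degree of freedom at least 4.98), so the precision rests on the spread between replicates and not on depth alone. Log2 CPM used a prior count of 2. Named genes were the members, their partners, for each member the 5 genes with the highest correlation over the 24 inputs (mean of at least 20 counts), up to 3 genes of each list with the highest input counts, and the genes across from them. The 7 ribosomal pairs and Rps28 with Kank3, Krt8, Krt18, Krt14, Actb, Patl1 and the Cnot7 entry were named after their values were seen. The replicate numbers pair the inputs, where same-numbered libraries of 2 constructs deviated together (every correlation at least 0.152), but not all RIP libraries (lowest 0.006). The study's methods take the input from the lysate that is precipitated. Values without CNOT7 input replicate 10 or E247A/Y260A input replicate 6 relative to all genes were added after the data were seen.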

Additional observations from a re-analysis of the deposited data

Results flagged for a closer look

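In each of the 10 groups, the highest and lowest library of each member was compared with the others of its group by Dixon's gap ratio on TMM-scaled log2 CPM, 40 groups in all, of which chance alone marks about 1 in 20. Patl2 in CNOT7 input replicate 10 was lowest with a gap ratio of 0.951, at 1 count and 1.98 TMM-scaled CPM against 2670 to 3850 in the other CNOT7 inputs. Wdr38 in the same library was lowest with a gap ratio of 0.724, at 143 counts and 96.4 TMM-scaled CPM against 416 to 727. Wdr38 in M141R input replicate 8 was lowest with a ratio of 0.776, at 400 TMM-scaled CPM against 681 to 794. In the precipitates, Tlcd1 in E247A/Y260A RIP replicate 6 was highest with a ratio of 0.728, at 347 TMM-scaled CPM (256 counts) against 177 to 213, and Wdr38 in D40A RIP replicate 6 was highest with a ratio of 0.930, at 243 (178 counts) against 156 to 161. For Tlcd1 the RIP libraries of replicate 6, at 315 to 388 TMM-scaled CPM, all lay above those of the other numbers, which reached 302.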

How the results depend on the processing

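In the 57 settings tried for comparisons within the inputs or the precipitates, and 56 for RIP over input, 0 member tests were called and 0 had an unadjusted p under 0.05. The settings were DESeq2, library size alone, library size outside the 13 models, no filter on low counts, the replicate block, libraries of a single kind, replicate 6 inputs or replicate 9 RIP left out together, and each library left out. With the replicate number as a block, the median of the 20 RIP over input ratios was -1.60 on the log2 scale, and the block changed no call. That median was -0.93 with DESeq2, -5.95 with library size alone and -0.79 with library size outside the 13 models, with all-gene medians of -0.0091, -4.84 and 0.056. Tlcd1 in CNOT7 against vector inputs ranged from -0.058 (without vector input replicate 10) to 0.32 with 1 library left out. With library size alone, Patl2 in M141R against vector RIP became 0.056 and Tlcd1 in E247A/Y260A against vector RIP 0.10. Without E247A/Y260A input replicate 6 the mean ratio of Snx22 was -0.95, but the all-gene median moved from -0.65 to -0.28 (8197 genes passed the filter), so relative to it Snx22 was at -0.67 in both fits. The cause of the other changes was not tested. Replicates differed by more than sampling noise in all 92 pairs, so the spread between replicates, beside depth, limits the comparisons.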
